A study of Mus musculus with 16 samples.

Results

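The genes described here are 37 genes of cholesterol and fatty acid synthesis, of the SREBP system that controls their transcription, and of sterol transport and efflux, out of 38924 gene rows counted in each library. They were picked by symbol for their known place in these pathways, with earlier results of these data in view, and the rule holds no threshold on a measured value. All 37 symbols matched 1 row each, and all 37 passed the filter on low counts, as 18350 genes in all did. Because the choice was made with results known, the counts and tests below describe these libraries and are not independent support for the choice.

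The libraries were made from mRNA of mouse brain punches labelled as ventral posterolateral thalamic nuclei, a relay for touch and pain signals. The 16 libraries fell into 4 groups of 4: mice labelled RGS4 KO and treated with CFA, wild-type (WT) mice treated with CFA, naive mice labelled RGS4 KO, and naive WT mice. CFA is the usual abbreviation in rodent pain studies for complete Freund's adjuvant, which is injected to cause a lasting inflammation. The series text describes a mouse line with a floxed RGS4 gene, in which adeno-associated virus carrying Cre recombinase lowered RGS4 in this nucleus; RGS4 is a protein that shortens signalling by G protein coupled receptors. Each library pooled 4 punches of 12 gauge from 2 mice. The site, dose and time of CFA, the age of the mice and what the WT mice were injected with are not stated in the material used. The labels call the mice female and the protocol calls them male, and the X-inactivation transcript Xist stood at 560 to 750 CPM in every library (counts-per-million, scaled by edgeR's trimmed mean of M values, the unit of level used throughout). The 4 Y-linked genes read summed to at most 0.172 counts-per-million in 15 libraries and to 1.3 in WT naive library 2. Unlike the other levels, these Y sums were taken over the raw library total, without that scaling.

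The libraries held 18057885 to 78773967 counts in genes. Rgs4 itself, the targeted gene, averaged 84.1 ± 5.5 CPM in CFA libraries labelled KO, against 89.3 ± 6.66 CPM in WT CFA libraries, and 81.3 ± 2.74 CPM in naive libraries labelled KO, against 80.9 ± 3.66 CPM in WT naive libraries (SD, n = 4 each). Its genotype effect averaged over both treatments was -0.04 ± 0.04 on the log2 scale (SE, edgeR quasi-likelihood test, adjusted p = 0.709). The counts of Rgs4 thus did not set the libraries labelled KO apart, and the label is used below as a label only. In the same comparison 685 of 18350 genes (3.73%) were called. The Rgs4 counts cover the whole gene and were not split by exon. The 6 genes of the thalamic relay neuron list summed to 780 ± 52.6 CPM in CFA libraries labelled KO and 796 ± 44.2 CPM in WT CFA libraries. In naive libraries they summed to 836 ± 49.4 CPM where labelled KO and 760 ± 32.5 CPM where WT (SD, n = 4 each). The 2 listed genes of the Edinger-Westphal nucleus, a midbrain group outside the thalamus, summed to 109 ± 55.8 CPM in CFA libraries labelled KO and 294 ± 35.7 CPM in WT CFA libraries, against 118 ± 93.7 CPM in naive libraries labelled KO and 35.0 ± 18.2 CPM in WT naive libraries (SD, n = 4 each).

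Brain cells make nearly all of their own cholesterol, because lipoproteins of the blood do not pass the blood-brain barrier, and myelin and synapses hold much of it. Acetyl-CoA is built up through mevalonate and isoprenoids to squalene, and squalene is closed into a ring and trimmed to cholesterol. The transcription factors encoded by Srebf2 and Srebf1 drive these enzymes and those of fatty acid synthesis; Scap carries them out of the endoplasmic reticulum when sterol is scarce, and Insig1 and Insig2 hold them there when sterol is plentiful. Sterols in excess act on the nuclear receptor LXR, whose targets include Abca1, Abcg1 and Mylip. At promoters, SREBP is known to bind sterol response elements together with the factors NF-Y and Sp1.

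The promoters below show what lies before the start of members from several steps, since these pathways are known to be driven through shared promoter motifs. Each line holds the 180 bases before a gene's RefSeq transcription start in the mouse build GRCm38.p6, read 5′ to 3′ on the strand of the gene. Capitals mark the sterol response element searched (TCACNCCAC) and the NF-Y motif CCAAT, which reads ATTGG on the other strand. Acat2, Hmgcs1, Mvd, Idi1, Lss, Msmo1 and Fasn are genes lower after CFA, and Abca1 is an efflux gene that was not called; neither Acat2 nor Abca1 holds either motif in its window.
Acat2: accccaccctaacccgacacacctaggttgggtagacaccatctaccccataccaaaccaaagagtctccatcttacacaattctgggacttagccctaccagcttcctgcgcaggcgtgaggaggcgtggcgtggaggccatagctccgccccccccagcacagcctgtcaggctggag
Hmgcs1: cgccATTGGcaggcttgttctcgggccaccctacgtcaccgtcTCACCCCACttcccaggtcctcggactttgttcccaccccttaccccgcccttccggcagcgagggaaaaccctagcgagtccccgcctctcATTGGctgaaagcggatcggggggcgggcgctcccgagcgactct
Mvd: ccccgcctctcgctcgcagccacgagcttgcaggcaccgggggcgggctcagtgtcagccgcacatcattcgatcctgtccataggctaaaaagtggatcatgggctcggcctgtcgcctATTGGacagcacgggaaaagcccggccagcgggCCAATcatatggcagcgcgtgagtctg
Idi1: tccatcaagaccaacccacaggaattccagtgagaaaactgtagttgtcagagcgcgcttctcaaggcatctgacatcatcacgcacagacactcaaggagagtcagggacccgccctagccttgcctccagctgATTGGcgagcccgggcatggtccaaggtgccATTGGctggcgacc
Lss: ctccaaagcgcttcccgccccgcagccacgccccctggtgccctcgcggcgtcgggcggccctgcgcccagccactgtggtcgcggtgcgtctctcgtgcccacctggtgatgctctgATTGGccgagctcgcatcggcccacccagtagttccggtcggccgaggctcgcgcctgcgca
Msmo1: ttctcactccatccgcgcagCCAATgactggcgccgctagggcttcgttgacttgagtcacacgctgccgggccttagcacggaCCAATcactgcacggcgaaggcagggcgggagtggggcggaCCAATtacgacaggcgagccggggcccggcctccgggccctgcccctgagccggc
Fasn: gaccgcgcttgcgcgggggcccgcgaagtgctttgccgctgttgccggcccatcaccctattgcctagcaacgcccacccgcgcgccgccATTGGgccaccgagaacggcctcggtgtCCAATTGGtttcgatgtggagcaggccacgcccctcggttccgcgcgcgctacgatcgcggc
Abca1: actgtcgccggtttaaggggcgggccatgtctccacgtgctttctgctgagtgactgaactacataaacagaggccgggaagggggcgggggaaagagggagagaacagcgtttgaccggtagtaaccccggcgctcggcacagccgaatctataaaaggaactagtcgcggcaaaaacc
These windows lie at chr17:12960726-12960905 (minus strand) for Acat2, chr13:119690171-119690350 (plus strand) for Hmgcs1, chr8:122443423-122443602 (minus strand) for Mvd, chr13:8885426-8885605 (plus strand) for Idi1, chr10:76531425-76531604 (plus strand) for Lss, chr8:64733579-64733758 (minus strand) for Msmo1, chr11:120824548-120824727 (minus strand) for Fasn and chr4:53159896-53160075 (minus strand) for Abca1. The element TCACNCCAC was present once among the members' promoters, in Hmgcs1, with its first base 137 bases before the start. Across all RefSeq promoters, 1.05% of 32851 held it in the 250 bases before the start, searched on both strands. CCAAT was found in 22 of the 29 members with a RefSeq promoter (75.9%), against 37.5% of 27025 genes. Among the cholesterol synthesis enzymes it was in 14 of 15 (93.3%), and among the fatty acid genes in 3 of 7. Of the members with a promoter, it was in 8 of 9 that were lower after CFA and in 14 of 20 that were not called, so it was not confined to the genes lower after CFA. The Sp1 motif GGGCGG was found in 24 of the 29 members (82.8%), against 35.4% of genes, and the E-box CACGTG in 7 (24.1%), against 6.86%. These shares of genes were taken over all RefSeq genes, expressed here or not, while all members passed the filter on low counts. Expressed genes alone were not compared. None of the 4 motifs contains another, and a match is a description of the letters, not evidence of binding.

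Averaged over both genotype labels, 11 of the 37 genes (29.7%) were lower in CFA libraries than in naive libraries and none was higher, with a background of 1.81% of all genes called in this comparison and 0.73% called lower (edgeR quasi-likelihood test, Benjamini-Hochberg adjusted p under 0.05 over 18350 genes). The 11 were Acat2, Hmgcs1, Mvd, Idi1 and Fdft1 before squalene, Lss, Msmo1 and Dhcr7 after it, Insig1 of the SREBP control, the sterol carrier Stard4, and Fasn of fatty acid synthesis. All 18 enzymes of cholesterol synthesis had a fold below 1, with a median log2 fold change of -0.15, beside 51.5% of all genes and a median of 0 over all genes. Of these 18, 8 were called (44.4%). Of the 11, Hmgcs1, Mvd, Idi1, Lss, Dhcr7 and Insig1 were called in each of the 16 fits that left out 1 library. The count of 11 became 6 without WT CFA library 9 or without library 16 (labelled KO, CFA), and 7 without WT naive library 2 or 3 or without naive library 6 or 7 (labelled KO). In bulk punches, less RNA per cell and fewer cells of a type cannot be told apart.

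Before squalene, the largest difference was in Mvd, the mevalonate diphosphate decarboxylase that makes the first isoprenoid unit. Mvd stood at 18.4, 19.8, 17.2 and 18.6 CPM in CFA libraries labelled KO and at 18.4, 18.8, 18.1 and 18.7 CPM in WT CFA libraries, against 20.4, 24.0, 24.9 and 27.5 CPM in naive libraries labelled KO and 24.4, 28.7, 23.6 and 24.4 CPM in WT naive libraries. Every CFA library lay below every naive library, and the 8 CFA libraries spanned a narrower range than the naive ones. The averaged CFA effect was -0.41 ± 0.05 on the log2 scale (SE; adjusted p = 0.000178), a level 24.9% lower.

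Hmgcs1, the HMG-CoA synthase that commits acetoacetyl-CoA to this route, was the most abundant sterol enzyme of the list, at 80.1 CPM per kilobase of exon over the 16 libraries. It had 333, 360, 342 and 320 CPM in CFA libraries labelled KO and 344, 343, 361 and 346 CPM in WT CFA libraries, against 361, 407, 400 and 406 CPM in naive libraries labelled KO and 380, 428, 381 and 374 CPM in WT naive libraries. The highest CFA library came just under the lowest naive one, so the groups did not overlap but nearly met. Its averaged CFA effect was -0.19 ± 0.03 (log2, SE; adjusted p = 0.0027).

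Idi1, the isomerase that turns the first isoprenoid unit into its reactive partner, had 64.0, 69.6, 69.7 and 64.8 CPM in CFA libraries labelled KO and 70.9, 71.2, 75.7 and 73.0 CPM in WT CFA libraries. Naive libraries had 77.7, 81.8, 82.0 and 90.3 CPM where labelled KO and 78.1, 90.7, 79.6 and 77.2 CPM where WT. Again no CFA library reached a naive one, and after CFA the libraries labelled KO lay below the WT ones. The averaged effect was -0.24 ± 0.04 (log2, SE; adjusted p = 0.00122). Hmgcs1, Mvd, Idi1 and Insig1 were the 4 members whose 8 CFA libraries all lay below the 8 naive libraries, which held for 0.142% of all genes.

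Acat2, the cytosolic acetoacetyl-CoA thiolase at the head of the pathway, had a median of 41.4 CPM in CFA libraries (39.6 to 46.6) and of 46.2 CPM in naive libraries (44.8 to 50.2). Fdft1, the squalene synthase, had a median of 117 CPM in CFA libraries (113 to 127) and of 132 CPM in naive libraries (118 to 144). Both ranges overlapped, and the averaged log2 effects were -0.16 ± 0.04 for Acat2 and -0.14 ± 0.03 for Fdft1 (SE; adjusted p = 0.024 and 0.0473). Fdft1 passed the threshold in 4 of the 16 fits without 1 library, those without WT naive library 4, naive library 5 or 8 (labelled KO) or CFA library 14 (labelled KO); its adjusted p reached 0.0982 without naive library 6. Acat2 was lost without WT naive library 2, naive library 6 (labelled KO), WT CFA library 9 or CFA library 16 (labelled KO), with an adjusted p of up to 0.061. Fdft1 shares 774 exon bases with Ctsb on the other strand, whose own CFA effect was 0.01 ± 0.02 (log2, SE), and the sources used here do not say whether the counting used strand.

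The other 3 genes before squalene were not called. The mevalonate kinase Mvk had a median of 23.5 CPM in CFA libraries and 26.5 CPM in naive libraries, with an averaged effect of -0.14 (adjusted p = 0.0823). The phosphomevalonate kinase Pmvk and the farnesyl diphosphate synthase Fdps had effects of -0.05 each, with 95% intervals of -0.10 to 0.01 for Pmvk and -0.14 to 0.05 for Fdps. Fdps has stretches at over 95% identity in other annotated genes, as do Idi1, Fdft1, Elovl6, Acaca and Hmgcs1; Acat2 shares such stretches with Acat3 and Tcp1, and Scd2 with Scd1. Reads from these stretches could be split between the genes or dropped as not unique.

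**Figure D1:**
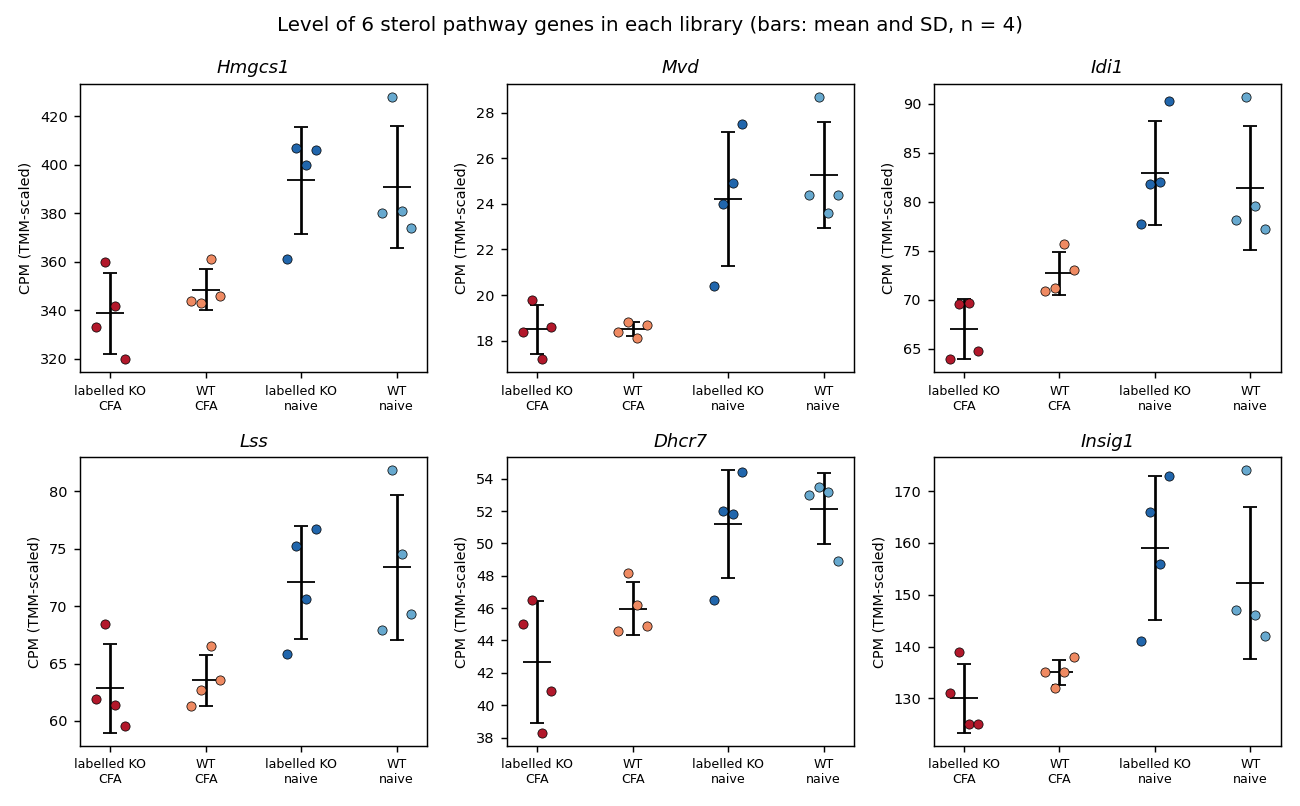
Level of Hmgcs1, Mvd, Idi1, Lss, Dhcr7 and Insig1 in each library, in TMM-scaled CPM on linear axes that do not start at 0. Points are libraries, with the mean and SD of the 4 libraries of each group, and CFA groups stand left of naive groups. For Mvd all 8 CFA points lie at 17.2 to 19.8 CPM, under the lowest naive point at 20.4 CPM.

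After squalene, 3 of 10 enzymes were called lower and all 10 had folds below 1. Lss, which closes squalene epoxide into lanosterol, had 61.9, 68.4, 61.4 and 59.6 CPM in CFA libraries labelled KO and 61.3, 62.7, 66.5 and 63.6 CPM in WT CFA libraries, against 65.8, 75.2, 70.6 and 76.7 CPM in naive libraries labelled KO and 67.9, 81.8, 74.5 and 69.3 CPM in WT naive libraries. In WT no CFA library reached a naive one, while naive library 5 (labelled KO), at 65.8 CPM, and WT naive library 1, at 67.9 CPM, lay within the range of all CFA libraries. The averaged effect was -0.20 ± 0.04 (log2, SE; adjusted p = 0.0152).

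Dhcr7, the reductase of the last step to cholesterol in one branch of the pathway, had 45.0, 46.5, 38.3 and 40.9 CPM in CFA libraries labelled KO and 44.6, 48.2, 46.2 and 44.9 CPM in WT CFA libraries. In naive libraries it had 46.5, 52.0, 51.8 and 54.4 CPM where labelled KO and 53.0, 53.5, 53.2 and 48.9 CPM where WT. The CFA and naive ranges overlapped between 46.5 and 48.2 CPM, and the averaged effect was -0.22 ± 0.04 (log2, SE; adjusted p = 0.00457). Msmo1, the oxidase that starts removal of the methyl groups from the sterol ring, had a median of 123 CPM in CFA libraries (111 to 126) and of 133 CPM in naive libraries (122 to 144). Its averaged effect was -0.14 ± 0.03 (log2, SE; adjusted p = 0.0322). Msmo1 was lost in 9 of the 16 fits without 1 library and kept without WT naive library 1 or 4, naive library 5 or 8 (labelled KO), WT CFA library 12 or CFA library 14 or 15 (labelled KO), with an adjusted p of up to 0.0712 without CFA library 16.

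A further 3 enzymes lay just outside the threshold, the lanosterol demethylase Cyp51 (adjusted p = 0.0522), the sterol reductase Tm7sf2 (0.0519) and the ketosterol reductase Hsd17b7 (0.0509), with averaged log2 effects of -0.20, -0.17 and -0.17. The values nearest the threshold on its inner side were those of Fdft1 (0.0473) and Fasn (0.0425). Squalene epoxidase Sqle, the rate-limiting oxygenase after squalene, had a median of 103 CPM in CFA libraries and 112 CPM in naive libraries, with an effect of -0.12 (adjusted p = 0.124). The dehydrogenase Nsdhl, which works with Msmo1 and Hsd17b7, had an effect of -0.10 (adjusted p = 0.229), the desaturase Sc5d of -0.06 (0.265), and the isomerase Ebp of -0.05 with an interval of -0.13 to 0.04. Tm7sf2 shares 532 exon bases with Vps51, whose own CFA effect was -0.01 ± 0.03, and Lss shares 381 with the antisense gene 4930483K19Rik, which was not called. Scap shares 985 exon bases with 5830462I19Rik on the other strand. Also on the other strand, Acss2 shares 395 with Gss, 335 with Acss2os and 197 with Ggt7. Cyp51 shares 166 with Akap9 and Srebf1 109 with Rai1, again on the other strand.

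**Figure D2:**
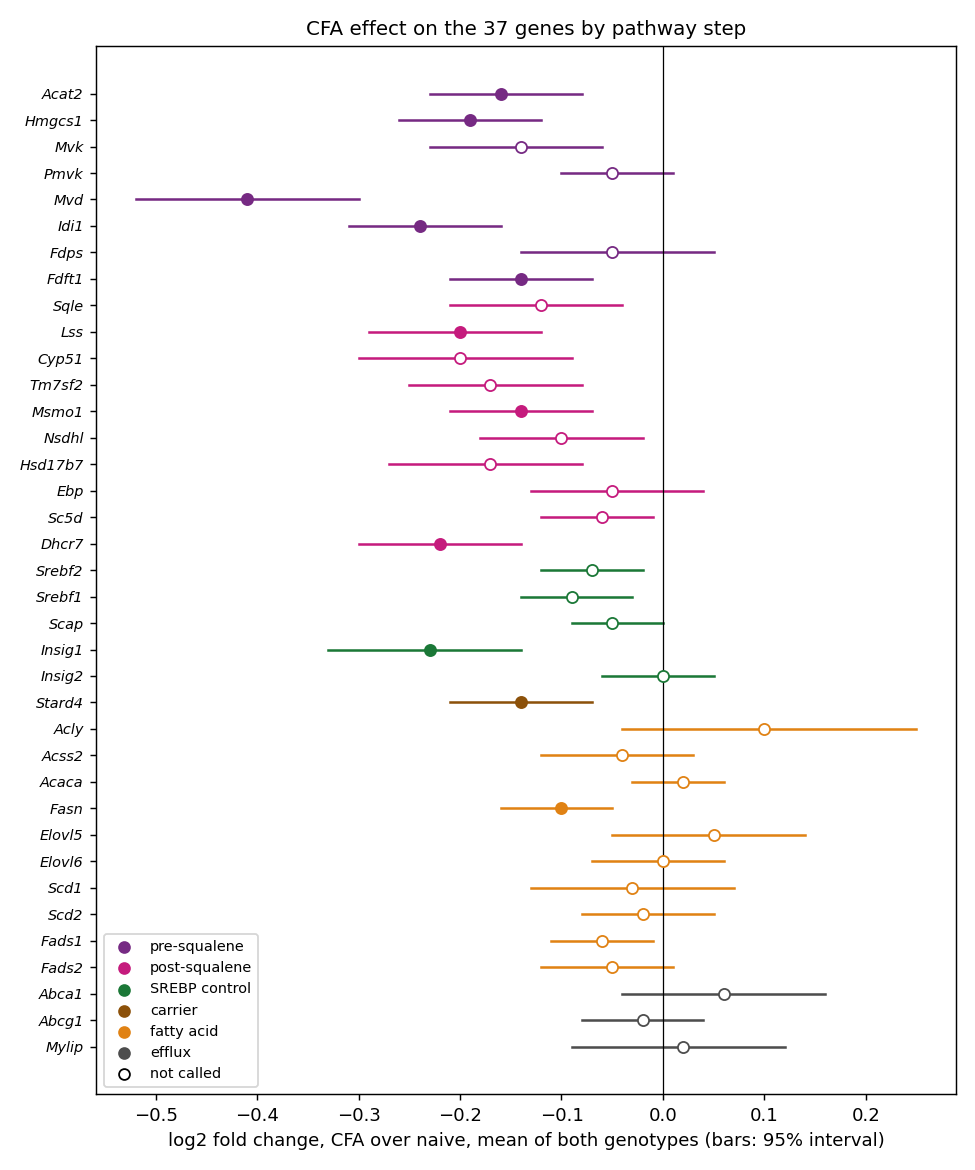
Log2 fold change of CFA over naive libraries, averaged over both genotype labels, for each of the 37 genes in the order of the pathway, with bars for the 95% interval. Filled points are genes called at an adjusted p under 0.05, open points are not called, and colours give the pathway step. All 18 points of the pre-squalene and post-squalene steps lie left of 0, with Mvd farthest at -0.41, while the fatty acid and efflux points lie between -0.10 and 0.10.

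Among the genes that control SREBP, 1 of 5 was called. Insig1, which retains SREBP in the endoplasmic reticulum and is itself an SREBP target, had 131, 139, 125 and 125 CPM in CFA libraries labelled KO and 135, 132, 135 and 138 CPM in WT CFA libraries. Naive libraries had 141, 166, 156 and 173 CPM where labelled KO and 147, 174, 146 and 142 CPM where WT. No CFA library reached a naive one, and the averaged effect was -0.23 ± 0.05 (log2, SE; adjusted p = 0.0141). Its paralog Insig2 was not called, with 60.7 CPM as the median of CFA libraries and 60.4 CPM of naive libraries and an interval of -0.06 to 0.05 around an effect of 0. The factors and their escort were not called: Srebf2 had an effect of -0.07 (adjusted p = 0.172), Srebf1 of -0.09 (0.105) and Scap of -0.05 (0.341).

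Stard4, a soluble carrier that moves cholesterol between membranes, was the member called both with CFA and with genotype label. It had 70.3, 79.6, 76.7 and 69.9 CPM in CFA libraries labelled KO and 73.7, 85.9, 83.1 and 82.8 CPM in WT CFA libraries, against 78.5, 83.3, 79.4 and 80.2 CPM in naive libraries labelled KO and 92.3, 92.7, 94.0 and 85.7 CPM in WT naive libraries. The lowest group was CFA with the KO label and the highest was naive WT, with the other 2 groups between them. Its averaged CFA effect was -0.14 ± 0.03 (log2, SE; adjusted p = 0.0365). That call was kept without WT naive library 4, naive library 5 or 8 (labelled KO), WT CFA library 10 or CFA library 14 or 15 (labelled KO) and lost in the 10 other fits without 1 library, with an adjusted p of up to 0.0834, and it was lost with the genotype labels left out (0.20).

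Of the 10 fatty acid genes 1 was called, 7 had a fold below 1, and the median log2 effect was -0.02. Fasn, the fatty acid synthase, had a median of 531 CPM in CFA libraries (501 to 551) and of 571 CPM in naive libraries (535 to 596), an averaged effect of -0.10 ± 0.03 (log2, SE; adjusted p = 0.0425). The Fasn call was kept without naive library 5 or 8 (labelled KO), WT CFA library 12 or CFA library 14 (labelled KO), and lost in the 12 other such fits, with an adjusted p of up to 0.0927. Acly, which makes the cytosolic acetyl-CoA that feeds both pathways, had an effect of 0.10 with an interval of -0.04 to 0.25. The acetyl-CoA carboxylase Acaca (0.02) and the acetyl-CoA synthetase Acss2 (-0.04) were not called, and neither were the elongases Elovl5 (0.05) and Elovl6 (0). The desaturases Scd1 and Scd2 had effects of -0.03 and -0.02, and Fads1 and Fads2 of -0.06 and -0.05. Scd2, which places the first double bond into saturated acyl chains, was the most abundant of the 37 genes at 516 CPM per kilobase of exon over the 16 libraries, ahead of Scd1 at 109, and the interval of its CFA effect was -0.08 to 0.05.

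The 3 genes of efflux and receptor turnover were not called. Abca1, the transporter that loads cholesterol onto lipoproteins, had a CFA effect of 0.06, with an interval of -0.04 to 0.16. The partner transporter Abcg1 had -0.02, and Mylip, a ubiquitin ligase that removes lipoprotein receptors and had the lowest level of the 37 at 4.09 CPM per kilobase, had 0.02.

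Summed by step, the 8 genes before squalene came to 705 ± 21.4 CPM in CFA libraries and 795 ± 43.8 CPM in naive libraries, a sum 11.3% lower after CFA (SD, n = 8 each). The 10 genes after squalene came to 615 ± 23.9 CPM in CFA libraries and 680 ± 34.8 CPM in naive libraries, and the sum was 9.65% lower. The 10 fatty acid genes summed to 5282 ± 207 CPM in CFA libraries and 5359 ± 118 CPM in naive libraries, and the 3 efflux genes to 151 ± 6.82 and 149 ± 6.97 CPM. Within genotype labels the pre-squalene sum was 11.9% lower after CFA in libraries labelled KO and 10.7% lower in WT libraries. Single genes weigh heavily in these sums. Hmgcs1 alone averaged 343 CPM in CFA libraries and 392 CPM in naive libraries. Scd2, among the fatty acid genes, averaged 2802 and 2833 CPM. The sums are a description without a test.

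**Figure D3:**
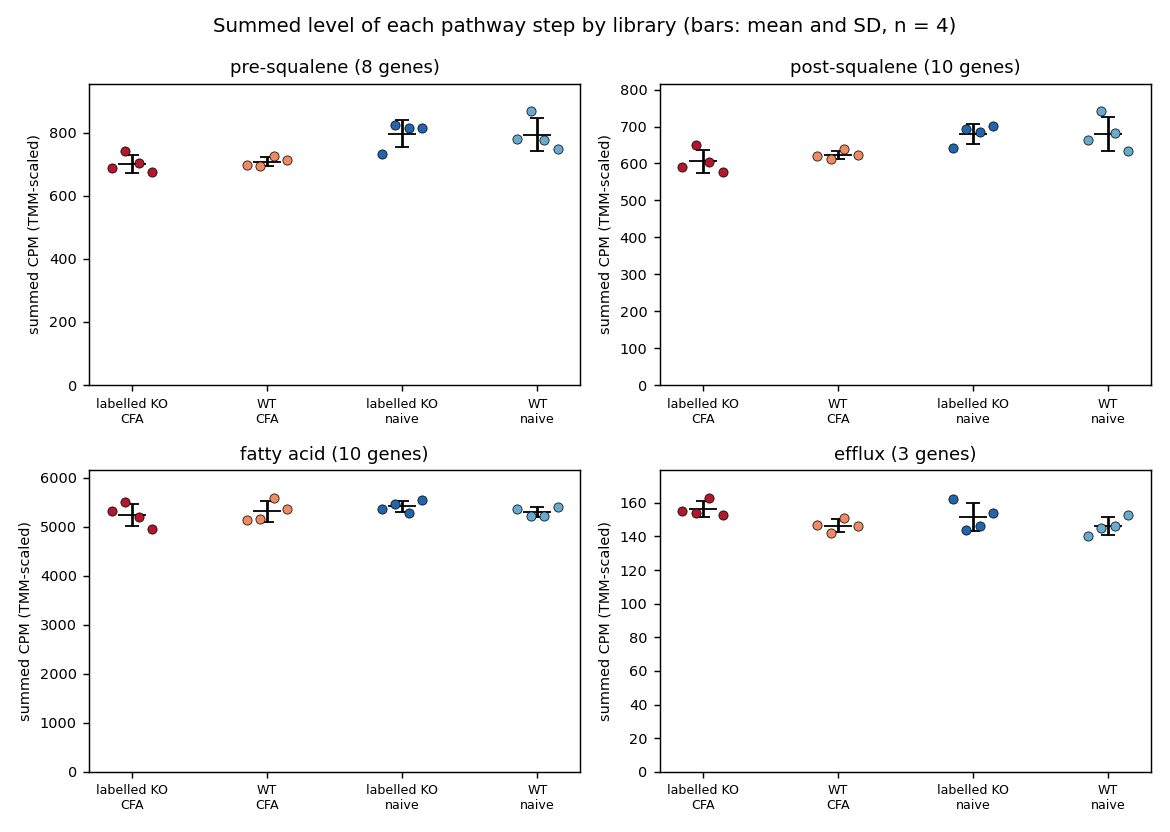
Summed TMM-scaled CPM of the genes of 4 pathway steps in each library, with the mean and SD of each group of 4, on axes that start at 0. CFA groups stand left of naive groups. The pre-squalene sums lie at 676 to 742 CPM in CFA libraries and at 734 to 869 CPM in naive libraries, meeting only in CFA library 14 and naive library 5 (both labelled KO). The post-squalene sums lie at 577 to 650 CPM in CFA libraries and at 633 to 742 CPM in naive libraries, and the fatty acid and efflux sums overlap more widely.

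The libraries were not alike within groups. Among CFA libraries labelled KO, libraries 13, 15 and 16 each had 1 of the 18 sterol enzymes above its median over the 16 libraries, and library 14 had 11. The WT CFA libraries had 2, 2, 4 and 2 above it. Naive libraries labelled KO had 11, 17, 18 and 16, and WT naive libraries 17, 17, 14 and 10. Library 14 thus stood apart from the other 3 of its group, and WT naive library 2 had the highest level of Hmgcs1, Mvd, Idi1, Lss and Insig1 of all 16.

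Cell type markers were read beside these differences, since the punch holds several cell types that make sterols. The 10 mature oligodendrocyte genes summed to 8419 ± 1323 CPM in CFA libraries labelled KO and 9474 ± 555 CPM in WT CFA libraries, against 9191 ± 1822 CPM in naive libraries labelled KO and 7925 ± 1034 CPM in WT naive libraries (SD, n = 4 each). With CFA their median log2 effect was thus -0.20 in libraries labelled KO and 0.23 in WT libraries, while the sterol enzymes had -0.15 in both (-0.09 in WT without WT naive library 2), and none of the 10 was called. The 9 astrocyte genes summed to 4718 ± 217 CPM in CFA libraries and 4736 ± 116 CPM in naive libraries, and the 7 neuron genes to 4588 ± 140 and 4507 ± 251 CPM (SD, n = 8 each). By group, the astrocyte sum was 4536 ± 118 CPM in CFA libraries labelled KO and 4901 ± 85.6 CPM in WT CFA libraries. In naive libraries it was 4715 ± 161 CPM where labelled KO and 4757 ± 65.3 CPM where WT (SD, n = 4 each). The neuron sum in the same order was 4527 ± 105, 4650 ± 157, 4624 ± 314 and 4390 ± 108 CPM. All 6 endothelial and mural genes had a fold above 1 with CFA under each label, and none was called. Over all 55 markers 2 were called in the averaged CFA effect, beside 1.81% of all genes, both higher, Gpr17 of early oligodendrocytes (0.17, adjusted p = 0.00974) and Prkcd of thalamic relay neurons (0.28, adjusted p = 0.0255). The largest averaged effects of the 55 were those of the 2 Edinger-Westphal genes, at log2 1.49 and 1.51. Both had an unadjusted p under 0.05 (edgeR) and were not called. They summed to 202 ± 108 CPM in CFA libraries and 76.7 ± 76.8 CPM in naive libraries (SD, n = 8 each). With CFA in WT mice 4 of the 55 were called, all higher, beside 2.23% of all genes. These were 2 of the Edinger-Westphal list (log2 3.04 and 3.20) and 2 of the thalamic relay list. In libraries labelled KO 0 were called, and in the interaction 1 relay gene was, beside 0.0654% of all genes. Between labels, 2 were higher and 1 lower in naive libraries (1.45% of all genes called), and 2 lower after CFA (1.6%). The part of the markers in the sterol result was not tested.

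Taken alone, each genotype label gave fewer calls in the same direction. In WT mice 1 of the 37 genes (2.7%) fell with CFA, near the background of 2.23% of all genes called (0.807% called lower), and that gene was Mvd, with -0.45 ± 0.07 (log2, SE; adjusted p = 0.00335). It was called in each of the 16 fits without 1 library. The count of 1 became 6 without naive library 8 (labelled KO), 4 without naive library 5 (labelled KO), 3 without WT naive library 4, and 2 without WT naive library 1, WT CFA library 11 or CFA library 13 or 14 (labelled KO). In WT, 12 members were lower in every CFA library than in every naive library, Acat2, Hmgcs1, Mvd, Idi1, Fdft1, Lss, Tm7sf2, Dhcr7, Srebf1, Scap, Insig1 and Fasn, which held for 5.17% of all genes. Insig2 and Elovl5 were higher without overlap, as were 6.13% of all genes.

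In libraries labelled KO 2 of the 37 genes (5.41%) fell with CFA, beside 0.185% of all genes called and 0.0872% called lower, Idi1 with -0.31 ± 0.05 (log2, SE; adjusted p = 0.012) and Mvd with -0.38 ± 0.08 (adjusted p = 0.0445). Neither was called without CFA library 13 or without CFA library 16 (labelled KO), where the adjusted p of Idi1 was 0.058 and 0.0598. Mvd stayed under the threshold without WT naive library 2 or 3 or naive library 5 (labelled KO) and was lost in the 13 other fits, with an adjusted p of up to 0.16. The count of 2 became 5 without WT naive library 2 or naive library 5 (labelled KO). In these libraries Hmgcs1, Mvd, Idi1, Cyp51, Msmo1 and Insig1 were lower in every CFA library than in every naive library, as were 2.17% of all genes. All 18 sterol enzymes had a fold below 1 under each label, with a median log2 effect of -0.15 each. Under the KO label this was 17 of 18 with raw library sizes, in thinned counts, and without naive library 6 or 7 or CFA library 13 or 16 (labelled KO). In WT it was 17 of 18 without naive library 1 or CFA library 9, and the WT median became -0.09 without WT naive library 2.

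The CFA effect was then compared between the labels. No member was called in the interaction of genotype and CFA (edgeR quasi-likelihood test and DESeq2, 0 of 37 each), beside 0.0654% of all genes called by edgeR. The 2 members with an unadjusted p under 0.05 were Elovl6, with a difference of -0.21 ± 0.06 (log2, SE; adjusted p = 0.223), and Insig2, with -0.17 ± 0.06 (adjusted p = 0.298). The CFA effect of Elovl6 was -0.11 in libraries labelled KO and 0.10 in WT libraries, and that of Insig2 was -0.09 in libraries labelled KO and 0.08 in WT libraries. For Mvd the difference was 0.07, with an interval of -0.15 to 0.29, and for Hmgcs1 it was -0.05, with an interval of -0.19 to 0.08, so differences of these sizes in the CFA response were not detectable with 4 libraries a group.

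**Figure D4:**
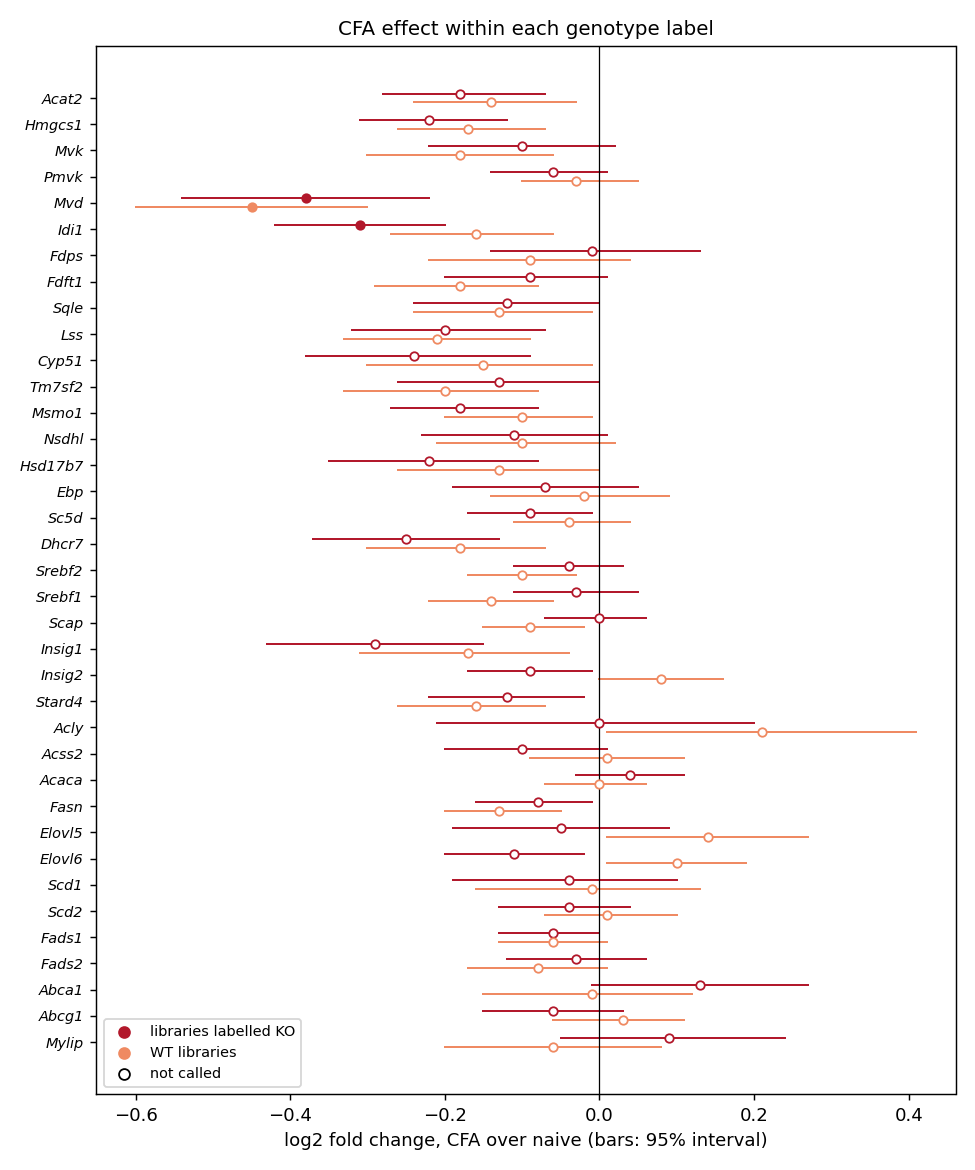
Log2 fold change of CFA over naive libraries for each of the 37 genes in libraries labelled KO (dark red, upper of each pair) and in WT libraries (orange, lower), with bars for the 95% interval. Filled points are genes called at an adjusted p under 0.05. Mvd is filled in both and Idi1 in libraries labelled KO. As drawn, 8 pairs lie on opposite sides of 0, those of Insig2, Acss2, Elovl5, Elovl6, Scd2, Abca1, Abcg1 and Mylip. Acly under the KO label (a change of -0.201%) and Acaca in WT (-0.291%) are drawn at 0 after rounding. The pairs of Acly and Acaca also differ in sign.

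Between genotype labels few of these genes were called. In naive libraries 0 of 37 genes were called (edgeR; 2 with an unadjusted p under 0.05, and 1 by DESeq2, Stard4), beside 1.45% of all genes. After CFA 0 of 37 were called (edgeR; 8 with an unadjusted p under 0.05, and Elovl5 and Abca1 by DESeq2), beside 1.6% of all genes. Averaged over treatments, 1 of 37 was called, beside 3.73% of all genes (1.99% called lower): Stard4, lower in libraries labelled KO with an effect of -0.16 ± 0.03 (log2, SE; adjusted p = 0.00787), and called in each fit without 1 library. Stard4 had 78.5 to 83.3 CPM in naive libraries labelled KO and 85.7 to 94.0 CPM in WT naive libraries, the one member lower without overlap there (3.41% of all genes).

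After CFA, Idi1, Cyp51, Insig2 and Elovl5 were lower in every library labelled KO than in every WT library, as were 4.25% of all genes, and Mvk, Abca1 and Mylip were higher without overlap, as were 3.78%. Elovl5, an elongase of polyunsaturated chains, had 112, 115, 99.7 and 104 CPM in CFA libraries labelled KO against 121, 124, 130 and 128 CPM in WT CFA libraries, with an effect of -0.22 ± 0.06 (log2, SE; adjusted p = 0.106). Abca1 had 74.9, 75.5, 84.4 and 74.6 CPM in CFA libraries labelled KO against 70.9, 60.3, 69.3 and 64.5 CPM in WT CFA libraries, with an effect of 0.22 ± 0.07 (adjusted p = 0.125). The groups of each gene stood apart, but neither gene passed the threshold over all genes tested.

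Of 43 further genes of these pathways, 2 were called lower and 1 higher in the averaged CFA effect, where 1.81% of all genes were called. Aacs, which turns acetoacetate into acetoacetyl-CoA for lipid synthesis and thus enters the pathway beside Acat2, had 36.0 to 40.5 CPM in CFA libraries (median 37.8) and 42.1 to 50.7 CPM in naive libraries (median 46.1). The groups did not overlap, and the effect was -0.28 ± 0.04 (log2, SE; adjusted p = 0.000222), called in each fit without 1 library. Rdh11, a retinol dehydrogenase and SREBP target, had an effect of -0.17 ± 0.04 (adjusted p = 0.0365), and Hacd2, a dehydratase of very long chain fatty acid elongation, was higher at 0.14 ± 0.03 (adjusted p = 0.0312). Rdh11 was kept without WT naive library 4, naive library 5, 7 or 8 (labelled KO), WT CFA library 11 or CFA library 15 (labelled KO), and lost otherwise, with an adjusted p of up to 0.0799. Hacd2 was lost without WT naive library 1, 2 or 3, naive library 6 (labelled KO), WT CFA library 9 or 12 or CFA library 15 or 16 (labelled KO), with an adjusted p of up to 0.0648. In WT mice alone 2 of the 43 were called, beside 2.23% of all genes, Aacs (-0.33, adjusted p = 0.00253) and Hacd2 (0.19, adjusted p = 0.0305).

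By genotype label, averaged over treatments, 2 of the 43 genes were called, beside 3.73% of all genes. Acacb, the carboxylase at mitochondria whose product restrains fatty acid oxidation, was higher in libraries labelled KO. It averaged 15.3 ± 1.21 CPM in CFA libraries labelled KO against 10.8 ± 0.298 CPM in WT CFA libraries, and 14.2 ± 1.55 CPM in naive libraries labelled KO against 10.7 ± 0.453 CPM in WT naive libraries (SD, n = 4 each). The log2 effects were 0.51 ± 0.07 after CFA (SE; adjusted p = 0.000234) and 0.41 ± 0.07 in naive libraries (adjusted p = 0.00456), both called in each fit without 1 library, with no overlap between labels. Its paralog Acaca, the cytosolic carboxylase of the member list, had effects of 0 after CFA and -0.05 in naive libraries. The malic enzyme Me1, a source of NADPH for synthesis, was lower in libraries labelled KO with an effect of -0.12 ± 0.03 averaged over treatments (adjusted p = 0.0326). Me1 was kept without WT naive library 1 or 4, naive library 7 or 8 (labelled KO), WT CFA library 10 or CFA library 13 (labelled KO) and lost otherwise, with an adjusted p of up to 0.0841.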

How the data were processed

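Counts of reads per gene in 16 libraries were used as the authors deposited them, 1 table per library, with TopHat, DESeq2 and the build mm10 named in the submitters' processing notes. The counting options, strand use and annotation are not stated in the material used. Reads not assigned to a gene made up 38.0% to 39.9% of each table and were left out. Those with no feature made up 11.2% to 12.2%, ambiguous ones 2.2% to 2.3%, and those not uniquely aligned 24.1% to 26.0%. Gene IDs were named from GENCODE M21 (37607 of 38924 rows).

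All 16 libraries, grouped by their labels, were fitted in 1 model with a mean per group, with edgeR 4.0.16 in R 4.3.3 (trimmed mean of M values scaling, robust quasi-likelihood test, a filter on low counts with a minimum count of 10). The 18350 genes kept held 99.961% of counts, and p-values were adjusted over all of them by Benjamini-Hochberg. Intervals are 95%. Alternatives were other scalings, no filter, counts thinned to the shallowest library, fits of 2 groups, DESeq2 1.42.0 and leaving out each library. A fit with genotype labels left out was added after the data were seen. The test was run on counts simulated independently for each gene. Its smallest planted effect was larger than every averaged CFA effect called among the members except that of Mvd. Calls at the smaller sizes, and shifts of many genes together in a library, were thus not checked. Depth was 18057885 to 78773967 counts in genes, with a common biological coefficient of variation of 6.1%. Replicates within a group differed beyond counting noise (chi-square per degree of freedom of 3.38 to 13.2). Each library pools 2 mice, so p-values measure the spread between pools, and the labels do not say how pools were formed.

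The members, the pathway lists and the marker lists were chosen with earlier results of these data known. All 37 members are named, and of the 43 other pathway genes those called in any comparison. Promoters and motifs come from RefSeq tables of GRCm38.p6, which hold 29 of the 37 members.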

Additional observations from a re-analysis of the deposited data

Results flagged for a closer look

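Of 168 sets of 4 libraries scanned (each member gene and each step sum in each group), 12 held 1 library far from the other 3 by Dixon's criterion at the 95% level. That is 7.14% of the sets, where chance flags about 1 in 20. No cause was tested for any of them.

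WT naive library 2 was high in 4 genes: Acat2 at 48.3 CPM (the others 44.8 to 45.2), Hmgcs1 at 428 CPM (374 to 381), Mvd at 28.7 CPM (23.6 to 24.4) and Insig1 at 174 CPM (142 to 147). Without that library 7 members in place of 11 were called in the averaged CFA effect, with Hmgcs1, Mvd and Insig1 among those called in every such fit. Naive library 5 (labelled KO) was low in Hmgcs1 at 361 CPM (400 to 407) and in the summed pre-squalene genes at 734 CPM (814 to 824), and high in Fads1 at 395 CPM (385 to 386).

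In single genes, WT naive library 4 was low in Dhcr7 at 48.9 CPM (53.0 to 53.5) and naive library 8 (labelled KO) low in Fads2 at 189 CPM (207 to 210). After CFA, library 15 (labelled KO) was low in Insig2 at 53.2 CPM (58.9 to 60.0) and high in Abca1 at 84.4 CPM (74.6 to 75.5). WT CFA library 9 was low in Abcg1 at 63.4 CPM (67.9 to 68.6).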

How the results depend on the processing

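In the averaged CFA effect the count of 11 lower members was 11 with median-ratio scaling, 14 with raw library sizes, 13 without a filter, 9 in thinned counts (8 of them shared), 9 with genotype labels left out and 15 with DESeq2 (all 11 shared), and 6 to 14 without 1 library. All 18 sterol enzymes had a fold below 1 in that effect under each of these settings. For CFA in WT mice the count of 1 was 7 with raw library sizes, 3 without a filter, 2 in thinned counts, 6 in the fit of 2 groups, 9 with DESeq2 and 1 to 6 without 1 library. For CFA in libraries labelled KO the count of 2 was 1 in the fit of 2 groups, 5 with DESeq2 and 0 to 5 without 1 library. Between labels in naive libraries the count of 0 was 1 (Stard4) with raw library sizes, without a filter, in the fit of 2 groups and with DESeq2, and 0 to 1 without 1 library. After CFA the count of 0 was 1 in thinned counts (Elovl5), 2 in the fit of 2 groups (Cyp51 and Elovl5), 2 with DESeq2, and 0 to 1 without 1 library. The averaged genotype effect gave 1 to 2 without 1 library, and the interaction 0 throughout. Beside the losses given with each gene above, Acat2, Stard4 and Fasn (adjusted p = 0.0802, 0.0985 and 0.0763), Rdh11 (0.135), Hacd2 (0.311) and Me1 (0.0762) were lost in thinned counts, which hold fewer reads, Fdft1 with genotype labels left out (0.0527), and Mvd under the KO label in the fit of 2 groups (0.147). Hacd2 in WT mice was lost in 7 fits without 1 library (adjusted p up to 0.085), in thinned counts (0.199) and with raw library sizes (0.0524). Beyond fewer reads or libraries, the cause was not tested. No called member changed direction under any alternative run; within single labels, 8 settings each turned the sign of 1 of the 18 sterol enzymes, none of them called there, as given above. No paired analysis was run. The labels number the libraries in a running count across groups and do not say whether any were paired. The smallest averaged CFA effect called among the members was -0.10 (Fasn), and the member calls of that effect lost without 1 library lay at -0.10 to -0.16. Larger effects under the KO label alone were also lost, Mvd (-0.38) in 13 of the 16 fits and Idi1 (-0.31) in 2.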
